A study of Homo sapiens with 9 samples.

Results

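The 10 genes described here encode cytosolic and mitochondrial heat-shock chaperones: the HSP70 proteins HSPA1A, HSPA1B and HSPA8, the HSP110 proteins HSPA4 and HSPH1, the HSP90 proteins HSP90AA1 and HSP90AB1, the mitochondrial pair HSPD1 and HSPE1, and the small heat-shock protein HSPB1. They were chosen by gene symbol from a table of 30956 genes, and each of the 10 symbols matched 1 row. All 10 passed the filter of a mean of at least 10 normalized counts, as did 16765 genes in all. A normalized count is a gene's read count divided by 1 size factor per library.

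RNA immunoprecipitation sequencing (RIP-seq) was done in HEK293T cells, a transformed line from human embryonic kidney, with V5-tagged CNOT7 as the bait. CNOT7 is a poly(A) nuclease of the CCR4-NOT complex, and the tagged copy carried the substitution D40A, which impairs its catalysis. The labels give 3 RIP libraries, 3 input libraries of cells treated with doxycycline (3 µg/mL, 24 h) and 3 input libraries of cells without doxycycline. They name neither the doxycycline state of the cells used for RIP nor the promoter that drives the tagged protein. A pull-down from untagged cells, which would show background binding, was not analysed here.

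The table gave each RIP library and 3 of the 6 inputs a column of its own, called the tabulated inputs below. The names of those 3 columns fit both kinds of input, so their doxycycline state is unknown. The mean of the remaining 3 inputs was derived from the table's mean over 9 libraries; it has no spread and allows no test. Libraries held 37140622 to 40764899 reads in genes. RIP replicate 2 stood apart, with 14786 genes at 0 reads against 6398 to 12079 in the other 5 libraries, and with correlations of 0.91 and 0.92 to the other RIP libraries, which correlated at 0.98 (Pearson, log2 values, 12402 genes, which are not independent replicates). The bait's own mRNA, CNOT7, had 79593, 81129 and 100226 normalized counts in RIP, against 24412, 24627 and 25361 in the tabulated inputs and a mean of 4240 in the remaining inputs. Of the markers of this line, LIN28B, IGF2BP1 and NEFM were detected (means of 676 to 16349 in RIP) and SOX11 was near 0 (0.261 in RIP). ALB and PECAM1, markers of liver and endothelium, stayed under 4 normalized counts on average in RIP and in the tabulated inputs, while the collagen gene COL1A1 had 397 and 469; markers of leukocytes were not analysed here.

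Heat-shock proteins bind unfolded or partly folded proteins and keep them from aggregating. HSP70 proteins bind and release short hydrophobic stretches in an ATP-driven cycle, which J-domain proteins start and HSP110 proteins help to reset, and HSP90 takes over clients such as kinases and steroid receptors at a later stage. HSPD1 and HSPE1 form the folding chamber of the mitochondrial matrix and its lid. Many of these genes are induced together under protein-folding stress by the transcription factor HSF1, while HSPA8 and HSP90AB1 are also abundant in unstressed cells.

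Most of these chaperone mRNAs were recovered below the tabulated inputs, and 1 was recovered above them. At an adjusted p under 0.05 (limma on log2(normalized count + 1), Benjamini-Hochberg over 16765 genes), 7 of 10 were lower in RIP: HSPA8, HSPA4, HSP90AA1, HSP90AB1, HSPD1, HSPE1 and HSPB1. Among all genes tested 21.2% were lower. HSPA1B alone was higher, where 22.4% of all genes were, and HSPA1A and HSPH1 did not pass. The median log2 fold of the 10 was -0.82, against -0.043 over all genes tested. The authors' deposited table, made with DESeq2, gave the same 1 and 7 calls, where it called 20.6% of 20649 genes higher and 19.9% lower. All 3 RIP values lay below all 3 tabulated inputs for the 7 called lower, as for 27.3% of all genes, and above them for HSPA1B, as for 27.4%. Without RIP replicate 2 the same 1 and 7 genes were called, with HSPA1B at 0.71 and HSPB1 at -1.47. At an adjusted p under 0.01 the counts were again 1 and 7, where 16.4% of all genes were higher and 15.6% lower. Changes of at least 2-fold at an adjusted p under 0.05 were found for 0 genes higher, against 11.4% of all genes, and for 3 lower (HSP90AA1, HSPD1 and HSPB1), against 10.6%.

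**Figure D1:**
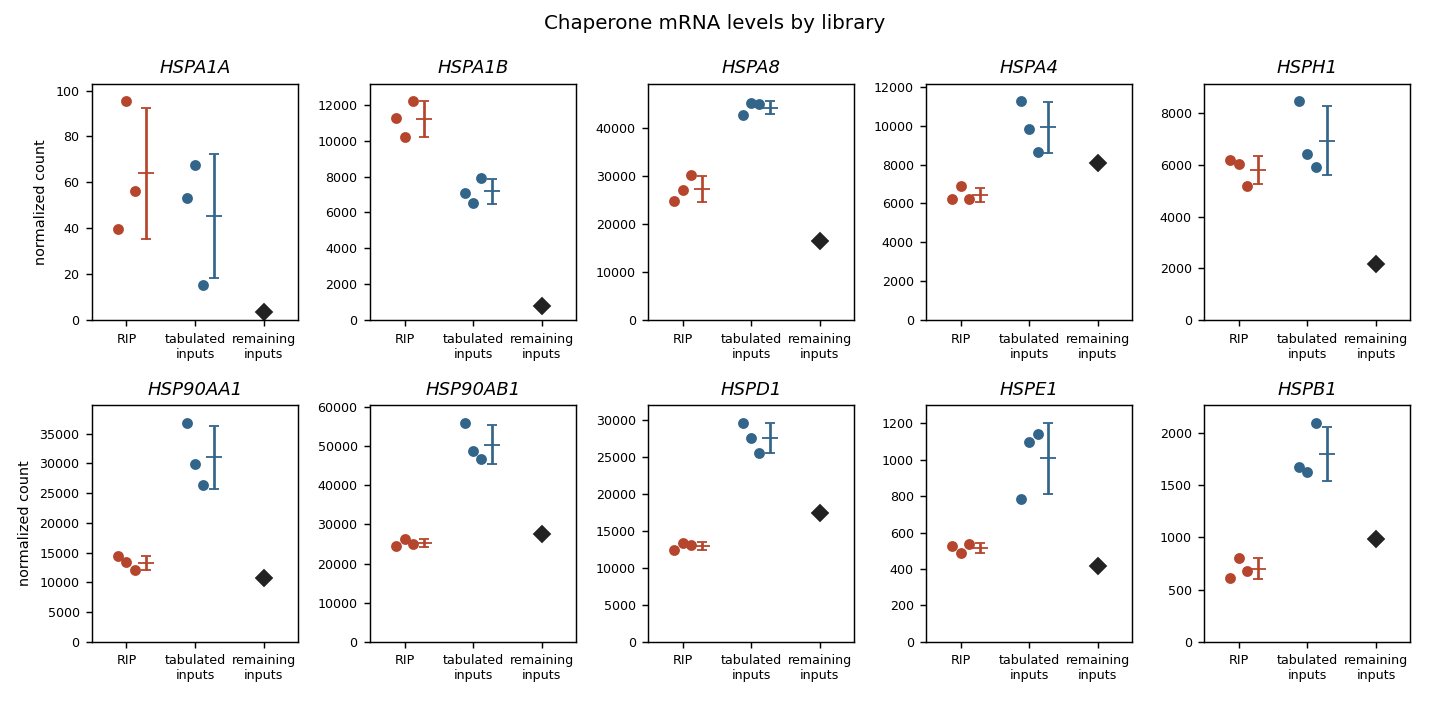
Normalized counts (y axis, linear, from 0, a scale for each gene) of the 10 chaperones in 3 RIP libraries and 3 tabulated inputs (points, with mean ± SD beside them) and the derived mean of the remaining 3 inputs (diamonds, no error). For HSPA1B the RIP values of 10199 to 12205 sit above the tabulated inputs of 6532 to 7903, and the remaining inputs' mean is 809.

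The stress-inducible HSP70 genes come first. HSPA1B (ENSG00000204388, chr6:31827738-31830254, RefSeq annotation of GRCh38.p14) had 11276, 10199 and 12205 normalized counts in RIP, against 7081, 6532 and 7903 in the tabulated inputs. Every RIP library was above every tabulated input, by a log2 fold of 0.65 (SE 0.12, adjusted p = 0.000946, limma). The mean of the remaining inputs was 809, so the RIP mean of 11227 ± 1004 (SD, n = 3) was 13.9-fold above it.

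HSPA1A (ENSG00000204389, chr6:31815543-31817942) lies on the same stretch of chromosome 6 and encodes an HSP70 protein nearly identical to that of HSPA1B. It had 39.7, 95.4 and 56.4 normalized counts in RIP and 53.2, 67.4 and 15.1 in the tabulated inputs, from 48, 128 and 72 reads and from 51, 59 and 13 reads. The groups overlapped, and the log2 fold was 0.64 (SE 0.76, 95% confidence interval -1.01 to 2.29, adjusted p = 0.527, limma). The mean of the remaining inputs was 3.45. Short reads from the shared part of HSPA1A and HSPA1B cannot be assigned to 1 of them, and the sources used here do not say how such reads were counted, so the split between these genes is uncertain.

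HSPA8 (ENSG00000109971, chr11:123057489-123062462), the constitutive cytosolic HSP70, went the other way from HSPA1B against the tabulated inputs. It had 24892, 27034 and 30167 normalized counts in RIP, against 42706, 45190 and 44969 in the tabulated inputs, a log2 fold of -0.70 (SE 0.12, adjusted p = 0.000598, limma). All RIP values were below all tabulated inputs and above the mean of the remaining inputs, 16472.

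The HSP110 proteins exchange the nucleotide on HSP70 and so speed up its cycle. HSPA4 (ENSG00000170606, chr5:133052013-133106449) had 6205, 6875 and 6238 normalized counts in RIP, against 11263, 9813 and 8667 in the tabulated inputs. It was lower in RIP by a log2 fold of -0.62 (SE 0.12, adjusted p = 0.00159, limma), and its RIP values also lay below the mean of the remaining inputs, 8061. HSPH1 (ENSG00000120694, chr13:31134973-31162388), the heat-inducible HSP110 gene, had 6189, 6033 and 5192 in RIP and 8461, 6431 and 5925 in the tabulated inputs. Its groups overlapped, with a log2 fold of -0.24 (SE 0.15, 95% confidence interval -0.56 to 0.073, adjusted p = 0.201, limma). Against the remaining inputs' mean of 2155 the RIP mean of 5805 ± 536 (SD, n = 3) was 2.69-fold higher.

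Both cytosolic HSP90 mRNAs were recovered at about the level of the remaining inputs and well below the tabulated ones. HSP90AA1 (ENSG00000080824, chr14:102080742-102139749), the stress-inducible form, had 14447, 13371 and 12069 normalized counts in RIP, against 36810, 29960 and 26388 in the tabulated inputs. Its log2 fold was -1.21 (SE 0.14, adjusted p = 2.87e-05, limma), with 10750 as the mean of the remaining inputs. HSP90AB1 (ENSG00000096384, chr6:44246194-44253883), the constitutive form, had 24380, 26370 and 25094 in RIP, against 55986, 48686 and 46705 in the tabulated inputs. Its log2 fold was -0.99 (SE 0.12, adjusted p = 4.73e-05, limma), and all RIP values were below the remaining inputs' mean of 27513.

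The mitochondrial pair was lower in RIP than in the tabulated inputs too. HSPD1 (ENSG00000144381, chr2:197486584-197500274) had 12422, 13335 and 13108 normalized counts in RIP, against 29598, 27610 and 25569 in the tabulated inputs, a log2 fold of -1.09 (SE 0.11, adjusted p = 1.27e-05, limma). The RIP values were also below the remaining inputs' mean of 17420. HSPE1 (ENSG00000115541, chr2:197500379-197503449) starts beside HSPD1 and is read from the opposite strand. It had 527, 486 and 535 in RIP, against 785, 1099 and 1141 in the tabulated inputs, a log2 fold of -0.95 (SE 0.20, adjusted p = 0.00229, limma), and 416 as the mean of the remaining inputs. HSPE1 lies inside the read-through gene HSPE1-MOB4 in the RefSeq annotation, and the sources used here do not say how reads shared by overlapping genes were counted.

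HSPB1 (ENSG00000106211, chr7:76302673-76304292), a small heat-shock protein that holds unfolded clients without using ATP, had the lowest fold of the 10. It had 606, 805 and 679 normalized counts in RIP, against 1669, 1623 and 2094 in the tabulated inputs. The log2 fold was -1.36 (SE 0.18, adjusted p = 6.26e-05, limma), and the RIP values also lay below the remaining inputs' mean of 983.

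The scaling bears on the smaller of these folds. Total-count scaling added 0.49 to the log2 fold of a typical gene, so the folds here are relative to a typical gene under the authors' size factors. With it, HSP90AA1, HSP90AB1, HSPD1 and HSPB1 were still called lower (log2 folds of -0.72, -0.50, -0.59 and -0.87), as were 9.86% of all genes. HSPA1B was called higher (1.14), as were 36.7% of all genes. HSPA8, HSPA4 and HSPE1 were then not called (-0.20, -0.12 and -0.45, adjusted p = 0.285, 0.538 and 0.0805, limma), and HSPH1 had 0.25 (adjusted p = 0.246, limma). Together the 10 genes took 0.328%, 0.344% and 0.352% of reads in genes in RIP, against 0.479%, 0.416% and 0.374% in the tabulated inputs. Few reads were assigned to processed pseudogenes of these genes. The highest of 43, HSP90AB3P, had means of 29.6 in RIP and 55.8 in the tabulated inputs.

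Against the remaining inputs the picture of the same RIP libraries differed. For 3 genes, HSPA8, HSP90AA1 and HSPE1, every RIP value was below every tabulated input and above the remaining inputs' mean, as for 0.74% of all genes tested. Their log2 folds of the RIP mean over the remaining inputs' mean were 0.73, 0.31 and 0.31. HSPA1A, HSPA1B and HSPH1 were at least 2-fold above the remaining inputs (log2 3.86, 3.79 and 1.43), where 21.7% of all genes were. No member was at least 2-fold below them, where 20.3% of all genes were. HSPA4, HSP90AB1, HSPD1 and HSPB1 stayed below them, with log2 folds of -0.32, -0.12, -0.43 and -0.50. These folds have no error for the inputs and were not tested, and both sets of folds share the RIP libraries.

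**Figure D2:**
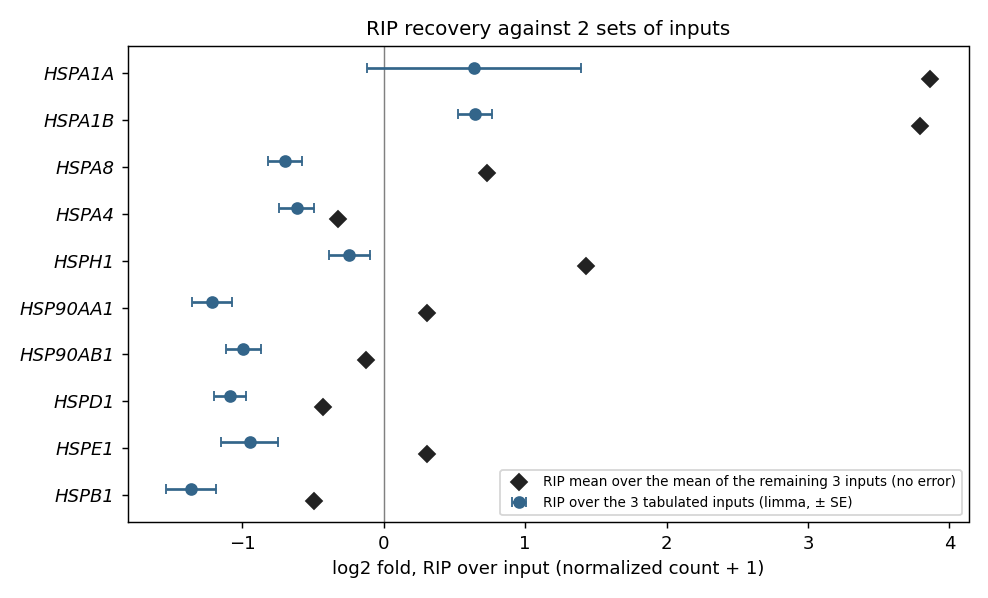
Log2 fold of RIP over the 3 tabulated inputs (circles, limma fit ± SE) and of the RIP mean over the derived mean of the remaining 3 inputs (diamonds, no error), for each chaperone on the y axis. Each diamond lies to the right of its circle, and those of HSPA8, HSP90AA1 and HSPE1 lie on the other side of 0.

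The change of sign came from the inputs, which differed for every member. In all 10 genes each tabulated input was above the remaining inputs' mean, as in 30.1% of all genes tested. The excess was at least 2-fold for 6 of the 10 genes, against 8.65% of all genes, and no member was at least 2-fold lower, against 7.44%. HSPA1B stood out in size: the tabulated inputs averaged 7172 ± 690 (SD, n = 3) against 809 in the remaining inputs, 8.86-fold, and 0.519% of tested genes had an excess at least as large. HSPA1A averaged 45.2 against 3.45, few reads in the remaining inputs. HSPH1 was 3.22-fold, HSP90AA1 2.89-fold, HSPA8 2.69-fold and HSPE1 2.42-fold higher in the tabulated inputs. HSP90AB1, HSPB1, HSPD1 and HSPA4 followed at 1.83, 1.83, 1.58 and 1.23. The median gene differed by -0.0037 (log2), and total normalized counts of the remaining inputs were 0.998 of those of the tabulated inputs. CNOT7 was 5.85-fold higher in the tabulated inputs. Its part in the chaperone difference was not tested, and doxycycline cannot be assigned to either set from the column names.

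HSF1 binds heat-shock elements, alternating GAA and TTC units with 2 bases between them. The start regions of the 10 genes were searched for them. These genes were chosen by symbol as heat-shock chaperones, so a higher share of matches than among all genes says nothing about the inputs. Whether the matches relate to the difference between the tabulated and the remaining inputs was not tested. In the 250 bases before RefSeq starts (GRCh38.p14), 3 such units (GAANNTTCNNGAA, on either strand) occurred for 4 members, HSPA8, HSP90AA1, HSP90AB1 and HSPD1, and for 0.557% of 27305 genes. At least 2 facing units (GAANNTTC or TTCNNGAA, which the longer motif includes) occurred for 7 members and for 14.0% of genes. HSPA4, HSPH1 and HSPE1 had neither in these windows, which says only that these letters are not there. A match is a description and not a binding site. Each line gives 1 match in capitals, 5′ to 3′ on the strand of the gene. HSPA8 and HSP90AB1 each held a further 3-unit match elsewhere in the window that is not shown. In HSPD1 a further 3-unit match overlaps the capitals and takes in the lower-case ttc before them, and the HSP90AA1 line holds a 2-unit match in lower case after the capitals.
HSPA1A, chr6:31815417-31815464, plus strand: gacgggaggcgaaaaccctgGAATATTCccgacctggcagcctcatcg
HSPA1B, chr6:31827613-31827660, plus strand: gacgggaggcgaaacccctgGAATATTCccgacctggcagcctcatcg
HSPA8, chr11:123062159-123062211, minus strand: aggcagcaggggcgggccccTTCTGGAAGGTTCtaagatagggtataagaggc
HSP90AA1, chr14:102087100-102087152, minus strand: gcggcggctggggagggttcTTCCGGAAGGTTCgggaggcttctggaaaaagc
HSP90AB1, chr6:44247811-44247863, plus strand: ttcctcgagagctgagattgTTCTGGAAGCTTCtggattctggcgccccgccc
HSPD1, chr2:197500048-197500090, minus strand: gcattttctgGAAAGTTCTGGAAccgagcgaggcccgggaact
HSPB1, chr7:76302471-76302518, plus strand: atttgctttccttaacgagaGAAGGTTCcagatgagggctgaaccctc

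The HSPA1A and HSPA1B windows were 93.6% identical over 251 aligned columns. The elements shown for HSPA8, HSP90AA1, HSP90AB1 and HSPD1 lie inside the annotated span of their gene, before a start downstream of its outermost end, and which start these cells used was not examined.

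Ratios within a library do not depend on the scaling between libraries, and 3 were compared. They are not corrected for transcript length, so only their differences between groups are read. HSPA1A plus HSPA1B over HSPA8, the inducible over the constitutive HSP70, had log2 ratios of -1.14, -1.39 and -1.30 in RIP, against -2.58, -2.78 and -2.51 in the tabulated inputs. The groups were apart by 1.34, with -4.34 in the remaining inputs. HSP90AA1 over HSP90AB1 had -0.75, -0.98 and -1.06 in RIP, against -0.60, -0.70 and -0.82 in the tabulated inputs, and the groups overlapped. HSPD1 over HSPE1 had 4.56, 4.78 and 4.61 in RIP, against 5.24, 4.65 and 4.49 in the tabulated inputs, and overlapped as well. Exact two-sided permutation p-values were 0.1, 0.2 and 0.8 (adjusted over the 3 ratios 0.3, 0.3 and 0.8), and 3 against 3 libraries cannot give less than 0.1.

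**Figure D3:**
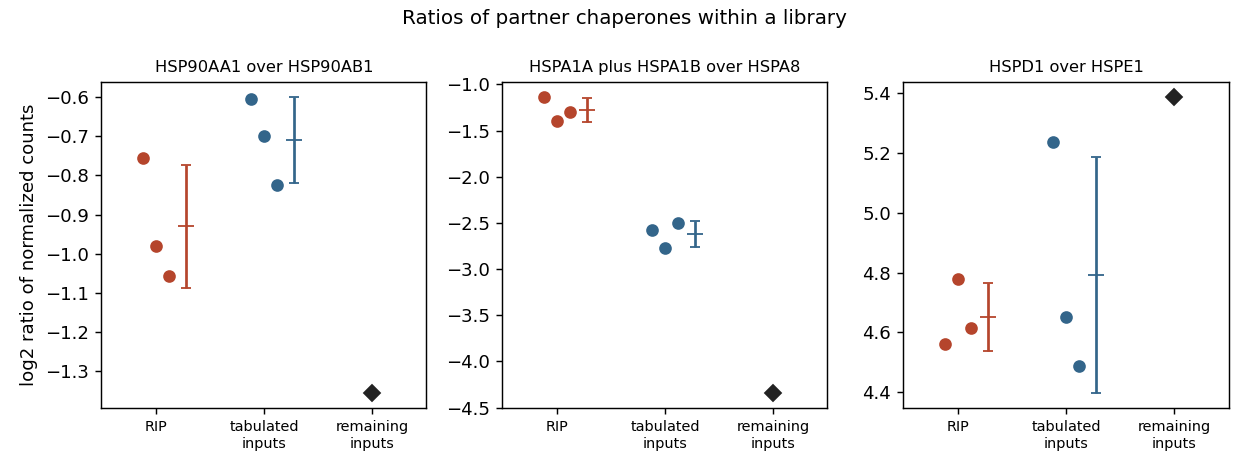
Log2 ratio of normalized counts of partner chaperones (y axis, a scale for each ratio) in 3 RIP libraries and 3 tabulated inputs (points, with mean ± SD) and in the means of the remaining 3 inputs (diamonds). The ratio of HSPA1A plus HSPA1B over HSPA8 averages -1.28 in RIP, above all 3 tabulated inputs.

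Relatives of these chaperones were called in both directions, as were all genes tested (22.4% higher and 21.2% lower). Of 9 tested HSP70 and HSP110 relatives 5 were lower and 2 higher (median log2 fold -0.52). The higher ones were HSPA13, an HSP70 relative of the endoplasmic reticulum (ER), at 0.48 (SE 0.13) and HSPA12A, a distant relative, at 0.40 (SE 0.12), both named to complete the count. HSPA5, the main HSP70 of the ER, averaged 3763 ± 336 normalized counts in RIP and 8886 ± 101 in the tabulated inputs (SD, n = 3 each), with 8681 in the remaining inputs. Its log2 fold was -1.24 (SE 0.11). HYOU1, the ER member of the HSP110 group, and HSPA9, the mitochondrial HSP70, had -1.46 (SE 0.12) and -1.01 (SE 0.12). Both other HSP90 genes were lower, the ER form HSP90B1 by -1.45 (SE 0.14) and the mitochondrial form TRAP1 by -1.18 (SE 0.16). Of the 9 HSP70 and HSP110 relatives and the other HSP90 genes, 0 were at least 2-fold higher in the tabulated than in the remaining inputs. Among all genes tested 8.65% were, and 6 of the 10 chaperones were. The difference between these lists was not tested. HSPA5 and HSPA9 differed between these inputs by log2 0.034 and -0.015, and HSP90B1 by 0.48. Of 9 other small heat-shock genes 6 were matched by symbol, and the rest were not analysed here. Of those 6 only HSPB6 and HSPB8 passed the filter, and neither was called (log2 folds of -2.24, SE 1.44, and 1.03, SE 0.65).

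HSP70 partners held genes called in both directions, where 22.4% of all genes tested were higher and 21.2% lower. Of 12 tested nucleotide exchange and binding partners 6 were higher and 4 lower in RIP (median 0.032). BAG5, which releases nucleotide from HSP70, and GRPEL2, its mitochondrial counterpart, had log2 folds of 1.32 (SE 0.13) and 0.89 (SE 0.13). ST13, which binds HSP70 and stabilises its client-bound form, had -1.14 (SE 0.12). Among J-domain partners 3 of 8 tested were higher and 2 lower (median -0.16). DNAJB4, DNAJB5 and DNAJB1 had 1.47 (SE 0.24), 1.09 (SE 0.15) and 0.96 (SE 0.13). DNAJB1, a stress-inducible J-domain protein, averaged 7312 ± 1110 normalized counts in RIP and 3727 ± 218 in the tabulated inputs (SD, n = 3 each), with 2129 in the remaining inputs. Of the J-domain genes 2 of 8 were at least 2-fold higher in the tabulated than in the remaining inputs, against 8.65% of all genes. They were DNAJB4 (log2 1.23) and DNAJA1 (log2 1.14), and DNAJA1 is named because of this value.

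HSP90 co-chaperones were mostly lower, 7 of 13 tested with 1 higher (median -0.49). For this and the next lists, the shares over all genes tested were 21.2% lower and 22.4% higher. The co-chaperones PTGES3 (p23), FKBP4 and UNC45A had log2 folds of -0.77 (SE 0.11), -0.93 (SE 0.14) and -1.67 (SE 0.25). Of 6 tested heat-shock factors and regulators 2 were lower and 1 higher (median -1.53). That median leans on 3 uncalled genes with few reads, HSF4, HSF2BP and HSBP1L1, which are named for this reason. They averaged 9.99, 38.2 and 37.3 normalized counts in RIP. Their log2 folds were -1.94 (SE 1.42), -2.31 (SE 1.38) and -1.14 (SE 0.75). HSF1 had -0.66 (SE 0.18), the related factor HSF2 had 1.07 (SE 0.12), and HSBP1, which binds HSF1 and dampens it, had -1.92 (SE 0.14). HSF2 averaged 5338 ± 52 normalized counts in RIP, against 2553 ± 214 in the tabulated inputs (SD, n = 3 each), with 2226 in the remaining inputs. Of 16 tested genes for mitochondrial folding and proteolysis, a list that shares HSPA9, TRAP1, GRPEL1 and GRPEL2 with the others, 7 were lower and 2 higher (median -0.48). The membrane scaffold PHB2 and the matrix protease CLPP had -1.63 (SE 0.13) and -1.70 (SE 0.16). Median differences of the tabulated over the remaining inputs were 0.11 for HSP90 co-chaperones, -0.26 for heat-shock factors and -0.044 for the mitochondrial list, against 1.35 for the 10 chaperones (log2).

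**Figure D4:**
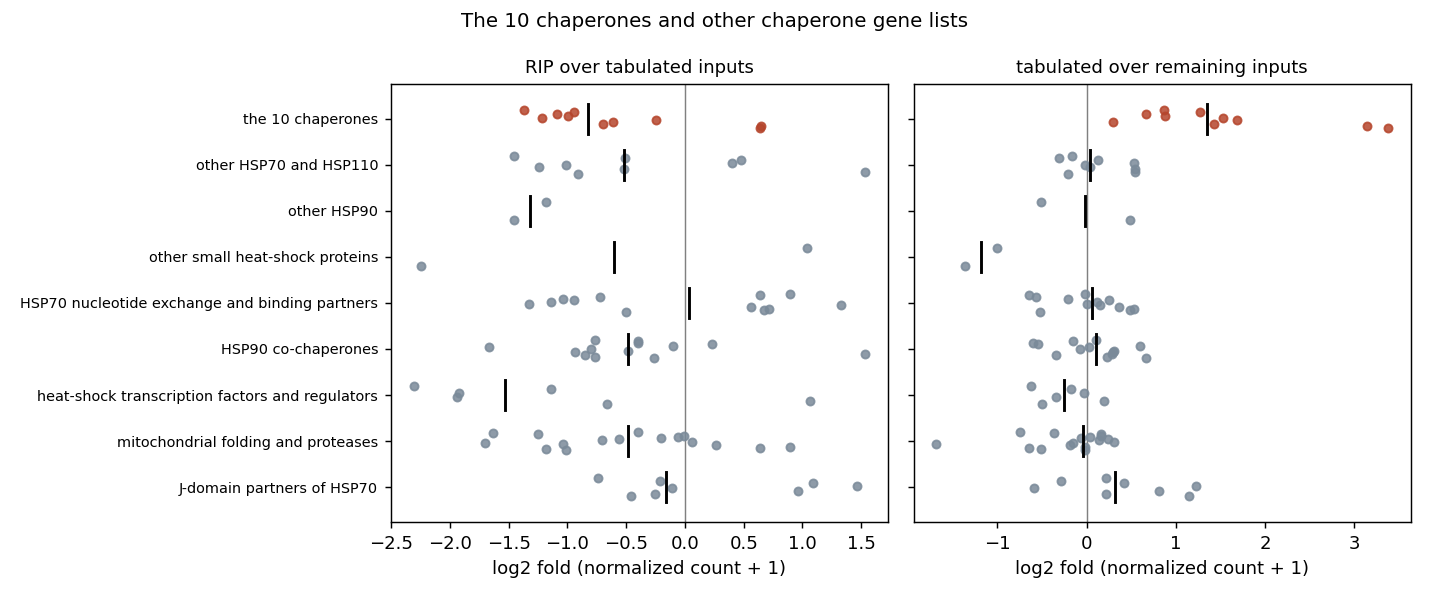
Log2 fold of RIP over the tabulated inputs (left) and of the tabulated over the remaining inputs (right) for each tested gene (points) of the 10 chaperones and 8 related lists, with list medians (bars). The 10 chaperones have a median of 1.35 on the right, where the mitochondrial list has -0.044.

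The genes whose 6 library values were closest to the median profile of the 10 chaperones were TTC39A, HNRNPK and HACD3, at root mean square distances of 0.040, 0.042 and 0.043 (log2) among 12361 genes with a mean of at least 100. Their log2 folds of RIP over the tabulated inputs were -0.90, -0.87 and -0.92. They were 0.29, 0.096 and 0.028 higher (log2) in the tabulated than in the remaining inputs, where the median of the 10 chaperones was 1.35.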

How the data were processed

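Per the submitters' processing notes the tools were STAR, featureCounts and DESeq2 (no versions) and the build was GRCh38. Annotation release and strand setting: not given in the sources used here. Each deposited library value is a signal: a gene's count over that library's size factor, as the authors made it; in each column 100% of values were whole multiples of the smallest within 0.01 of a read, which gave back whole reads. The log2 fold of RIP over input, its SE, the p-value and its Benjamini-Hochberg adjusted p-value were deposited by the authors (DESeq2, per the file headers).

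RIP (n = 3) was compared with the tabulated inputs (n = 3) by limma 3.58.1 (R 4.3.3, eBayes with trend) on log2(normalized count + 1), for genes with a mean of at least 10 over the 6 libraries. The remaining inputs' mean was 9 times the deposited mean, minus the 6 columns, divided by 3; it was negative for 0 genes. The log2 ratio of the tabulated group means stayed within 0.0153 of the authors' deposited fold for all 12402 genes with a mean of at least 100. Alternatives were other pseudocounts, filters and scalings, edgeR 4.0.16 and DESeq2 1.42.0 on recovered reads, and each library left out. Members and gene lists were chosen with earlier results of these data known. Besides the 10 genes, the 3 genes with the smallest p of each list were named. At these depths 3 reads stand for 0.0736 to 0.0808 CPM, for counting error only. No label says that replicates came from separate cultures; p-values then reflect only library-to-library spread, which may be technical. Sequences are from RefSeq start windows of GRCh38.p14, which all 10 symbols matched; no protein sequences were used here.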

Additional observations from a re-analysis of the deposited data

Results flagged for a closer look

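HSPA8, HSP90AA1 and HSPE1 drew attention because all 3 RIP libraries lay below all tabulated inputs and above the mean of the remaining inputs. Their log2 folds over the remaining inputs were 0.73, 0.31 and 0.31, against -0.70, -1.21 and -0.95 over the tabulated inputs. The difference between these folds was not tested, since the remaining inputs have no values per library. Such a pattern is possible only where every tabulated input is above the remaining inputs' mean, as it was for every member.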

How the results depend on the processing

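The counts of 1 chaperone higher and 7 lower in RIP were the same with pseudocounts of 0.5 and 10, without a filter, at a mean of at least 100, with TMM scaling, edgeR and DESeq2 on recovered reads, the authors' deposited table, an adjusted p under 0.01 and without any 1 library. Total-count scaling left 4 lower and turned the log2 fold of HSPH1 to 0.25; over all genes it called 6149 higher and 1653 lower, against 3758 and 3550. At least 2-fold changes were 0 higher and 3 lower, against 11.4% and 10.6% of all genes. Without the third tabulated input HSPA1A had -0.00052, and without each library in turn its log2 folds ran from -0.00052 to 1.04. Against the remaining inputs, which allow no test, HSPA8, HSP90AA1 and HSPE1 had 0.73, 0.31 and 0.31, and the ratio of HSP90AA1 over HSP90AB1 was 0.43 higher in RIP. The ratio of HSPD1 over HSPE1, -0.14 with all libraries, ran from -0.29 to 0.082 without each library in turn. The cause of these changes was not tested. No paired analysis was possible because the tabulated inputs could not be tied to single samples, so their numbers pair nothing. Depth limits HSPA1A, with 13 reads in 1 library.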
